A study of Rattus norvegicus with 6 samples.

Results

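Rat-1 fibroblasts plated on extracellular matrix that the collagenase MMP13 had remodelled were compared with the same cells on native matrix, across all genes and with emphasis on the abundant ones. Members of the comparison were 4 of the 6 libraries of the study, 2 from each matrix, picked by their sample names. An abundant gene is one whose mean over these 4 libraries was 50 normalised units or more. Of the 17143 genes in the table, 1078 were abundant, and they held between 62.0% and 63.8% of all values in each of the 4 libraries. Rat-1 is an established rat fibroblast line. In every group, 25000 cells per well were seeded and left to adhere for 4 h, and the attached cells were lysed on the matrix for 3′ end sequencing of messenger RNA. The native group had no protease treatment of its matrix. A further group of 2 libraries came from cells on matrix remodelled by MMP1, another collagenase. Its libraries entered the statistical fit for their spread, and their values stand beside a few results without being compared. The study asked how fibroblasts respond in transcription to a matrix that a protease has degraded. The labels name no transgene or genetic change, and they give the samples as duplicates without saying whether these were separate cultures. The p-values then measure only how far these libraries scatter, and that scatter may be technical.

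MMP13 (collagenase 3) is a secreted zinc protease that cuts the triple helix of fibrillar collagens, after which the fragments unwind and can be cut further. Fibroblasts make, anchor to and pull on collagen and fibronectin through integrins, and they sense the chemistry and stiffness of what they hold. NRF2 is a transcription factor that is degraded through its partner KEAP1 in unstressed cells. When electrophiles or oxidants modify KEAP1, NRF2 accumulates and turns on genes for haem breakdown, thioredoxin and glutathione chemistry and iron storage through antioxidant response elements.

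A unit is 1 read divided by the size factor of its library, so that 1 read was worth between 0.735 and 1.68 units. The libraries held 219775 and 347618 reads on native matrix and 362122 and 161817 reads on MMP13-remodelled matrix, and 100% of the values above 0 came out as whole reads. Since 3′ end counting puts 1 tag on a transcript, units are not scaled by gene length, and a gene's units were set against its own units in other libraries. Of the 16 fibroblast markers looked for, 9 were abundant, and the list summed to 8410.4 and 9061 units in the native libraries and 9243 and 8759 in the MMP13 libraries. Thy1 was between 199 and 251 units in the 4 libraries, while Col3a1 was between 10.9 and 21.8 and Pdgfra between 5.15 and 7.55. The fibroblast markers Lum and Dcn were all but absent, Lum with 0 reads in each of the 4 libraries and Dcn with 0 or 1. Marker lists of leukocytes, endothelium, epithelium, muscle, fat, red cells, cartilage and tendon, and Schwann cells each summed to between 0 and 90.0 units per library, and none of their genes was abundant.

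Few genes were called different between the matrices. Genes were tested with limma on log2(value + 1), with Benjamini-Hochberg adjustment over the 7284 genes that had at least 5 units in at least 2 libraries, and a gene was called at an adjusted p under 0.05. The test called 20 genes higher on MMP13-remodelled matrix (0.275% of tested genes) and 10 lower (0.137%). Among the 1078 abundant genes, all of which were tested, 19 were higher (1.76%) and 4 lower (0.371%). The abundant genes called higher were Hmox1, Rn45s, Rn28s, Ier3, Fam65b, Rpl7, Ftl1, Ppm1g, Rpl35, Txn1, Prdx1, Junb, Hspb1, Sqstm1, Akr1b8, Rpl37a with its identically counted copy Rpl37a-ps1, Rpl41 and Mip. Those called lower were Vps25, Slc38a2, Ahnak and Nme2. On the same recovered reads, edgeR's quasi-likelihood test called 24 abundant genes higher and 4 lower, and it shared 22 of the 23 limma calls. DESeq2 called 21 and 5, with 20 shared. The adjustment covered only 858 genes in DESeq2 and 4574 in edgeR, against 7284 in limma, so the adjusted p-values are not like for like. With scaling by TMM factors, limma called 7 abundant genes higher and 0 lower. Limma without the trend on mean level called 0 genes in either direction (442 at an unadjusted p under 0.05), with an adjusted p of 0.69 for Hmox1.

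**Figure D1:**
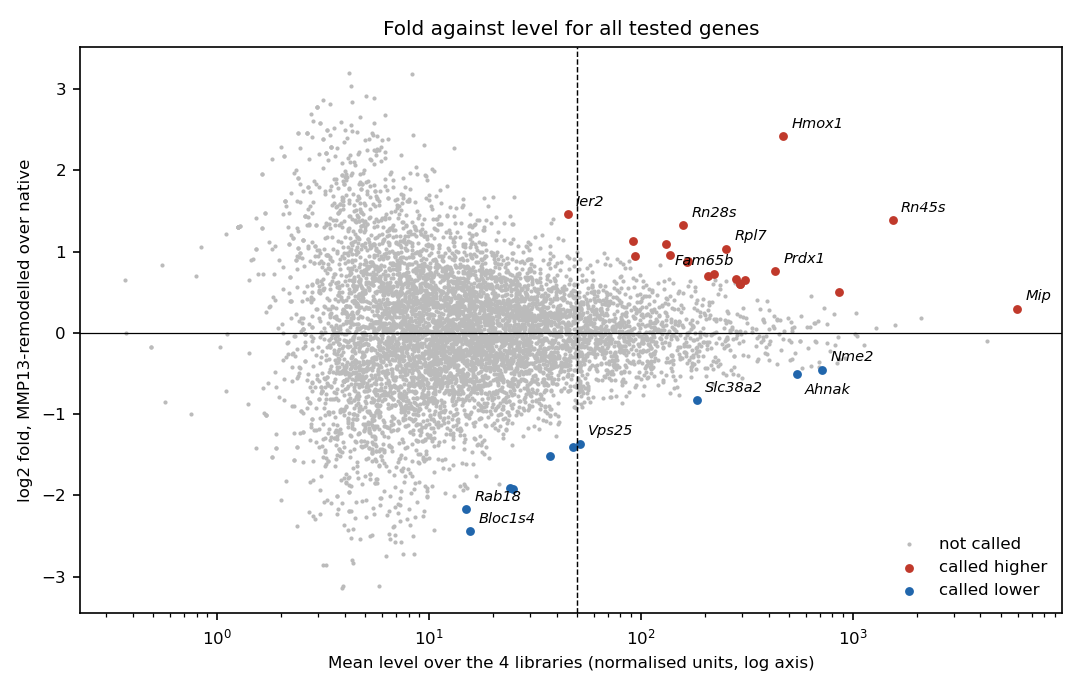
Log2 fold (MMP13-remodelled over native) of the 7284 tested genes against their mean over the 4 libraries in normalised units on a log axis, with genes called higher in red and called lower in blue. The dashed line marks the mean of 50 units, right of which lie 19 genes called higher and 4 called lower, Hmox1 farthest from 0 at 2.42.

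Most abundant genes had a small fold. Their median log2 fold was -0.02, beside 0.0088 over all tested genes, and their 5% and 95% quantiles were -0.58 and 0.61. In 902 of them (83.7%) the fold was under 0.5 on the log2 scale in size. The 95% interval of the fold lay inside -1 to 1 for 881 abundant genes (81.7%), so for these a doubling or halving was outside the interval, and inside -0.5 to 0.5 for 148 (13.7%). The abundant genes were the more precise, with a median SE of 0.26 for abundant genes and 0.67 for the other tested genes. In 242 abundant genes (22.4%) both MMP13 values were above both native values and in 260 (24.1%) both were below, against 18.9% and 18.6% over all tested genes. These shares are the background against which the families below were read.

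The error of each gene came from genes of like level and not from its own libraries, because the fit estimated infinite prior degrees of freedom. How much 1 library mattered was therefore checked by leaving out each in turn, where the lone library left in a group is assumed to vary like the other groups. Of the 19 abundant genes called higher, 5 kept their call without MMP13 replicate 1 (Hmox1, Mip, Prdx1, Rn45s and Rpl7) and 7 without MMP13 replicate 2 (Akr1b8, Fam65b, Hmox1, Prdx1, Rn28s, Rn45s and Rpl41). Without native replicate 1, 6 kept it (Fam65b, Hmox1, Mip, Rn28s, Rn45s and Rpl7), and without native replicate 2, 14 did. Without either MMP1 library, the same 11 kept it (Fam65b, Ftl1, Hmox1, Ier3, Prdx1, Rn28s, Rn45s, Rpl35, Rpl41, Rpl7 and Txn1). Of the 4 called lower, Vps25 kept its call without MMP13 replicate 1 or MMP1 replicate 1 and Slc38a2 without native replicate 2, and Ahnak and Nme2 lost theirs in every such fit. None of the 23 folds changed sign in these 6 fits. Of the 7 called genes below the abundance limit, 5 kept their call without MMP13 replicate 1 (Bloc1s4, Mmp9, Nfat5, Rab18 and Ubl3) and 0 without MMP13 replicate 2 or without native replicate 1. Ier2 and Ubl3 kept theirs without either MMP1 library or native replicate 2, Ppp6r1 without MMP1 replicate 1, Nfat5 without MMP1 replicate 2 and Mmp9 without native replicate 2. With the MMP1 libraries taken out altogether, 12 abundant genes were higher and 2 lower.

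**Figure D2:**
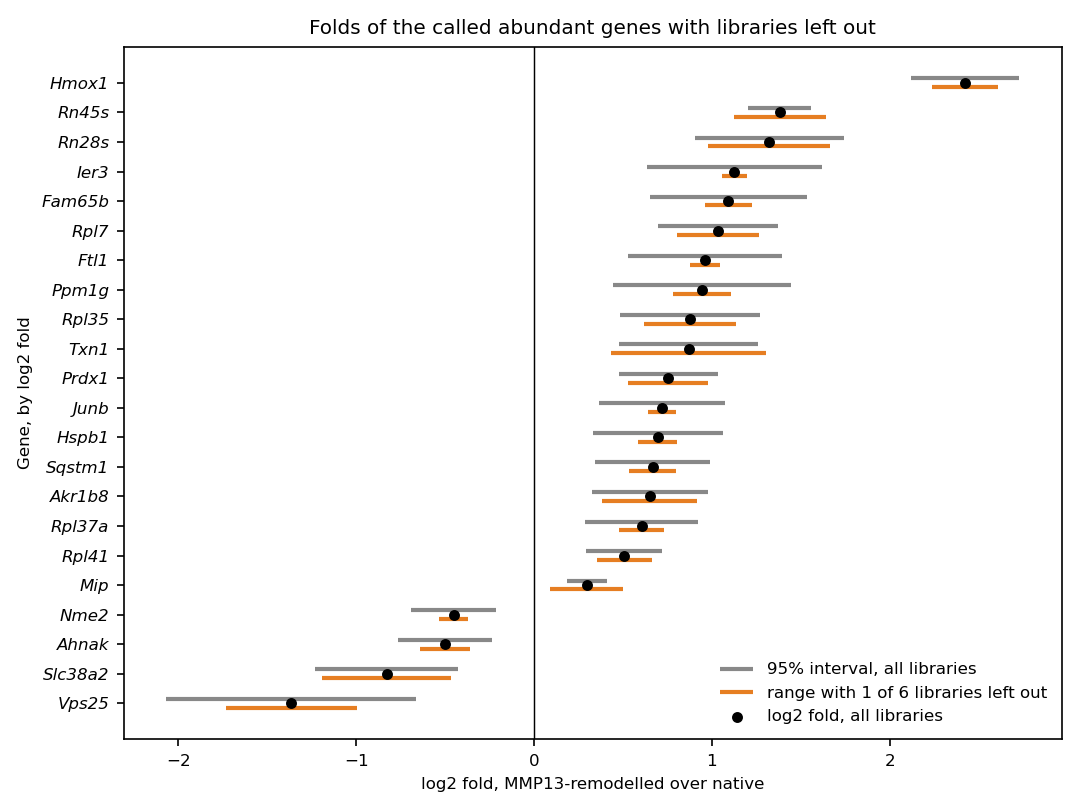
Log2 folds (MMP13-remodelled over native) of the called abundant genes, with the 95% interval from all 6 libraries in grey and the range of folds over the 6 fits without 1 library in orange. Hmox1 stayed between 2.24 and 2.61, Mip came nearest to 0 among the genes called higher (0.09 to 0.50) and Ahnak and Nme2 nearest among those called lower.

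Genes of haem breakdown, iron storage and antioxidant defence stood out among the higher calls. Called higher were 5 of 24 tested genes on the NRF2 list and 2 of 11 on the iron and haem list. The share called higher was 0.275% over all tested genes and 1.76% over abundant genes. Of the 24 and 11 tested members, 13 and 4 were abundant. Hmox1 was on both lists, and none of their genes was called lower. These lists were drawn up with earlier results of the data known, so that their calls are not independent evidence of a direction. Hmox1 encodes haem oxygenase 1, which opens haem to biliverdin, carbon monoxide and free iron. It measured 129 and 167 units in the native libraries and 835 and 749 in the MMP13 libraries. Both MMP13 values were well clear of both native values, with means of 148 ± 26.8 and 792 ± 60.7 units (mean ± SD, n = 2 in each group). The rise was 2.42 on the log2 scale, with SE 0.16 and adjusted p = 1.96e-50. The MMP1 libraries held 355 and 301 units. Since these are bulk libraries, a higher level in every cell and a much higher level in some cells cannot be told apart.

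Ftl1, the ferritin light chain that helps store the iron, had 96.0 and 89.8 units on native matrix and 193 and 171 on MMP13-remodelled matrix, with no overlap and a log2 fold of 0.96 (SE 0.22, adjusted p = 0.00854). Fth1, the ferritin heavy chain that oxidises the iron for storage, had 946 and 936 against 1194 and 1043 units and did not pass the test (log2 fold 0.25, 95% interval 0.04 to 0.45). So both ferritin chains had higher values in both MMP13 libraries, while only the light chain was called. All 4 abundant genes of the iron list, Hmox1 and the ferritins among them, had both MMP13 values above both native values, against 22.4% of abundant genes. Their median log2 fold was 0.60, and that of all 11 tested members 0.25. The whole iron list without Hmox1 summed to 1224 and 1216 units in the native libraries and 1550.3 and 1419 in the MMP13 libraries.

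In the thioredoxin arm, Prdx1, a peroxiredoxin that reduces peroxides, had 271 and 371 units on native matrix and 566 and 507 on MMP13-remodelled matrix, and rose by a log2 fold of 0.76 (SE 0.14, adjusted p = 1.88e-04). Txn1, the thioredoxin that recycles peroxiredoxins, had 83.9 and 154 against 233 and 186 units (log2 fold 0.87, adjusted p = 0.00854). The native values of Txn1 lay far apart, and without native replicate 1 or 2 its log2 fold ran down to 0.43 or up to 1.30, while DESeq2 gave it an adjusted p of 0.292. Txnrd1, the reductase that recharges thioredoxin, had 192 and 201 against 299 and 312 units, close within each group and not overlapping. It missed the limma threshold (log2 fold 0.63, adjusted p = 0.0801) and passed in edgeR (adjusted p = 0.0451) and DESeq2 (adjusted p = 0.0328). The 3 genes of this electron relay had both MMP13 values above both native values, as did 22.4% of abundant genes. They were named because they were called or had a small p, so this is not independent evidence.

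Akr1b8, an aldo-keto reductase of reactive aldehydes, had 213 and 266 against 449 and 311 units and rose by 0.65 on the log2 scale (adjusted p = 0.0342); its MMP1 libraries held 232 and 266 units. Sqstm1 encodes p62, an autophagy receptor that also binds KEAP1. It had 204 and 227 against 376 and 312 units and rose by 0.67 (adjusted p = 0.0249). The glutathione transferase Gstp1, among the most abundant genes of the list, had 806 and 769.7 against 717 and 730.5 units (log2 fold -0.12, 95% interval -0.36 to 0.11), so the members did not share one direction. Of the 13 abundant members of the NRF2 list, 8 (61.5%) had both MMP13 values above both native values and 1 (Gstp1) below. The shares over abundant genes were 22.4% and 24.1%. The median log2 fold of the abundant members was 0.61, beside -0.02 over all abundant genes, and 0.11 over all 24 tested members, beside 0.0088 over all tested genes. Without Hmox1, the whole list summed to 2871 and 3086 units in the native libraries and 3878 and 3528 in the MMP13 libraries. Metallothionein Mt2A, which answers to metals, had 72.9 and 70.2 against 70.6 and 53.7 units and was not called (95% interval -0.76 to 0.33).

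**Figure D3:**
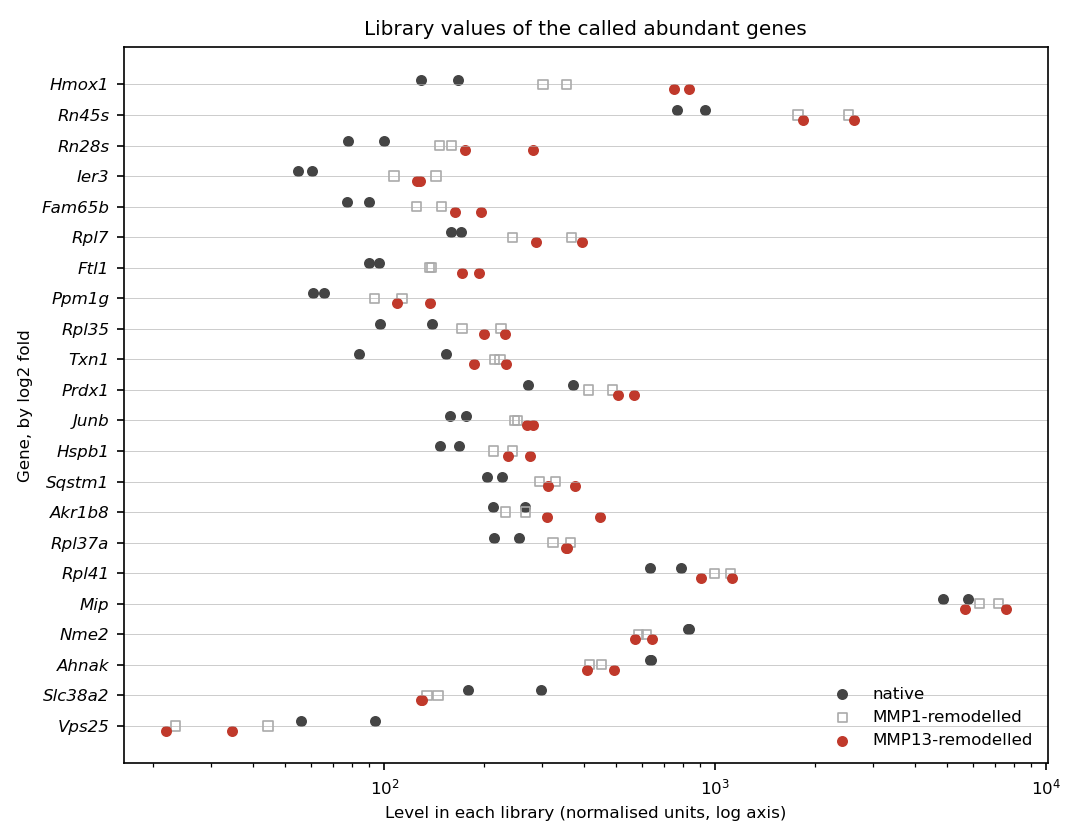
Level of each called abundant gene in each library in normalised units on a log axis, with native libraries in black, MMP13 libraries in red and MMP1 libraries as open grey squares. The red points lie clear of the black ones for the genes shown except Mip, whose lower MMP13 value fell below its higher native value. Rpl37a-ps1 is left out because its values equal those of Rpl37a.

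The promoters of 4 of the called genes are shown, picked after their values were seen because they hold a match to at least 1 of 5 motifs searched on both strands, from 250 bases before to 50 after the RefSeq transcription start (GRCr8). Hmox1, Ier3 and Ftl1 had no entry. Capitals mark matches on either strand, GCTGAGTCA in Prdx1 being the antioxidant response element core TGACNNNGC read from the other strand, with an AP-1 site (TGANTCA) inside it.
Prdx1: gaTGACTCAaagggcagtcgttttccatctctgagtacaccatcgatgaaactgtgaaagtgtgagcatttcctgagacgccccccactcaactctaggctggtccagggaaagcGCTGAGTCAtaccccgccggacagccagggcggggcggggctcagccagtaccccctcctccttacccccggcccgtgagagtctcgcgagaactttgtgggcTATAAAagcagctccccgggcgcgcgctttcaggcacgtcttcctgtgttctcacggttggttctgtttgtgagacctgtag
Sqstm1: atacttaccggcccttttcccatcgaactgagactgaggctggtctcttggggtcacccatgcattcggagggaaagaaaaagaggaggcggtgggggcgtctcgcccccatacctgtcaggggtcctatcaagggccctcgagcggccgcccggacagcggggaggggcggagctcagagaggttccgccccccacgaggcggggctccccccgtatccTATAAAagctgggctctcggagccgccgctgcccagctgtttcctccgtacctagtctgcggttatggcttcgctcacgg
Junb: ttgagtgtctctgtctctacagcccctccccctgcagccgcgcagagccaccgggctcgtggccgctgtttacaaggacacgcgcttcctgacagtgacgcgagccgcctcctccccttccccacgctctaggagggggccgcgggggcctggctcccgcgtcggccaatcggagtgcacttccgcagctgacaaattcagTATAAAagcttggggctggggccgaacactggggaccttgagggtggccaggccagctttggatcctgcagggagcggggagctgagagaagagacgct
Ier2: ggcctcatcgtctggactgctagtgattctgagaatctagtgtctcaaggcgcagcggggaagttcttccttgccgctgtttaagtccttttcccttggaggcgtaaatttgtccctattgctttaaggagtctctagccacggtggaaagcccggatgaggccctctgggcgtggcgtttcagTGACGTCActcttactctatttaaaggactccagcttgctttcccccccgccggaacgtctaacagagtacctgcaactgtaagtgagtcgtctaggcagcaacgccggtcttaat
In Prdx1 the antioxidant core starts at position -135 from the transcription start, a further AP-1 match lies near the upstream end, and TATAAA starts at -32. The capitals in Sqstm1 and Junb are TATAAA, at -30 and -49, and those in Ier2 are the cAMP response element TGACGTCA at -66.

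No motif was found in all called genes with an entry. Of the 12 abundant genes called higher with a promoter entry, 1 (Prdx1) held the antioxidant core. The core was in 12.1% of all 33469 promoters of the same length and 17.4% of the 900 abundant genes with an entry. Among these 12, the same gene alone held TGANTCA, against 7.33% of all promoters. None of the 12 held TGACGTCA or the CArG box, against 1.83% and 1.64%. Ier2, called higher but below the abundance limit, is not among the 12 and held TGACGTCA, as shown above. TATAAA was in 5 of the 12 (41.7%; Junb, Mip, Prdx1, Sqstm1 and Txn1), against 14.2% of all promoters and 10.0% of abundant ones. Among genes called lower, Slc38a2 also held the antioxidant core, as TGACGCGGC at -50, and Bloc1s4 the cAMP response element at -220. A match is a run of letters in this window and says nothing of a factor's binding.

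Immediate early genes are switched on within minutes to hours of a stimulus. Here 3 of the 24 tested were called higher, against 0.275% of all tested genes. Ier3, a short-lived regulator of survival signalling, had 54.7 and 60.4 units on native matrix and 126 and 128 on MMP13-remodelled matrix (log2 fold 1.13, SE 0.25, adjusted p = 0.00547). Junb, an AP-1 subunit, had 158 and 177 against 282 and 270.4 units (log2 fold 0.72, adjusted p = 0.0263). In both genes the replicates lay close together and the groups did not overlap. Ier2, whose promoter is shown above, averaged just under the mean of 50 units, at 14.6 and 35.5 against 71.3 and 58.8 units (log2 fold 1.46, adjusted p = 0.0189), and its native values differed more than its MMP13 values. Its log2 fold was 0.85 without native replicate 1 and 2.08 without native replicate 2. Zfp36, which destabilises messenger RNAs, had 10.9 and 9.81 against 22.1 and 35.3 units and did not pass (adjusted p = 0.367). The 5 abundant members had log2 folds from -0.42 to 1.13, with a median of 0.06. Of all 24 tested members 6 had both MMP13 values above both native values and 3 below, against 18.9% and 18.6% of tested genes.

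Entries named for ribosomal RNA were higher as well. Rn45s, the entry of the ribosomal RNA precursor, had 927 and 768 units on native matrix and 1844 and 2631 on MMP13-remodelled matrix (log2 fold 1.38, SE 0.09, adjusted p = 4.09e-49). Robust eBayes, a limma setting that lets single genes keep their own larger spread, did not call it (adjusted p = 0.439). Rn28s, the entry of the large ribosomal RNA, had 77.8 and 99.6 against 282 and 175 units (log2 fold 1.32, adjusted p = 1.58e-06). With Rn5-8s, which was not called (adjusted p = 0.752), these entries made up 0.381% and 0.337% of the native libraries and 0.805% and 1.04% of the MMP13 libraries. The libraries were made for 3′ ends of messenger RNA, and how ribosomal RNA came to be counted was not tested. In the MMP1 libraries Rn45s had 1777 and 2529 units.

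Genes of ribosomal proteins, the protein part of the same machine, showed scattered rises in the large subunit. Of 46 tested large-subunit genes, 38 of them abundant, 4 were called higher and none lower. The share called higher was 0.275% over all tested genes and 1.76% over abundant genes. The copy Rpl37a-ps1 was counted outside the list. Rpl7 had 159 and 169.8 units on native matrix and 288 and 396 on MMP13-remodelled matrix (log2 fold 1.03, SE 0.17, adjusted p = 3.80e-06), and Rpl35 had 97.2 and 139.6 against 232 and 199.8 (log2 fold 0.88, adjusted p = 0.00854). Rpl41, one of the smallest ribosomal proteins, had 636 and 789 against 1121 and 905 units (log2 fold 0.51, adjusted p = 0.00307). Rpl37a had 214 and 254 against 354 and 356 units (log2 fold 0.60, adjusted p = 0.0499) and carried exactly the reads of Rpl37a-ps1 in every library, so its reads cannot be given to one or the other.

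The large-subunit list was not uniform. Of 38 abundant members 19 (50%) had both MMP13 values above both native values, against 22.4% of abundant genes, and 4 had them below, against 24.1%. The median log2 fold was 0.20 in the large-subunit list and 0.07 in the small-subunit list, where 11 of 27 abundant genes had both MMP13 values above and 5 below. No small-subunit gene was called by limma. Rps24 came closest, at 81.4 and 94.3 against 182 and 136 units (log2 fold 0.84, adjusted p = 0.0536), and passed in edgeR (adjusted p = 0.0198), while Rps3, at 962 and 953 against 766 and 771 units, lay the other way (log2 fold -0.32, adjusted p = 0.282). Summed levels were 7912 and 8157 against 9403 and 8488 units for the large subunit and 6300.2 and 6647 against 6566 and 6542 for the small one. Ribosomal protein genes have many processed pseudogenes, and reads of near-identical copies may have been split between them. The ribosomal RNA entries moved in the same libraries, and their part in these values was not tested.

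Factors that assemble or run the ribosome did not pass the test. Of 27 tested genes of ribosome biogenesis none was called, with Ncl (nucleolin, 82.7 and 95.1 against 141 and 106 units) and Nop58 (a box C/D particle protein, 71.7 and 93.6 against 104 and 141 units) not overlapping between groups at adjusted p of 0.606 and 0.489. Of 40 translation factors none was called either. Among the 29 abundant ones, 9 (31.0%) had both MMP13 values below both native values and 5 (17.2%) above. The shares over abundant genes were 24.1% and 22.4%. The median log2 fold was -0.03 over the abundant ones and 0.01 over all tested. Eif5a, a highly abundant elongation factor, had 895 and 838 against 768 and 796 units (95% interval -0.37 to 0.07).

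**Figure D4:**
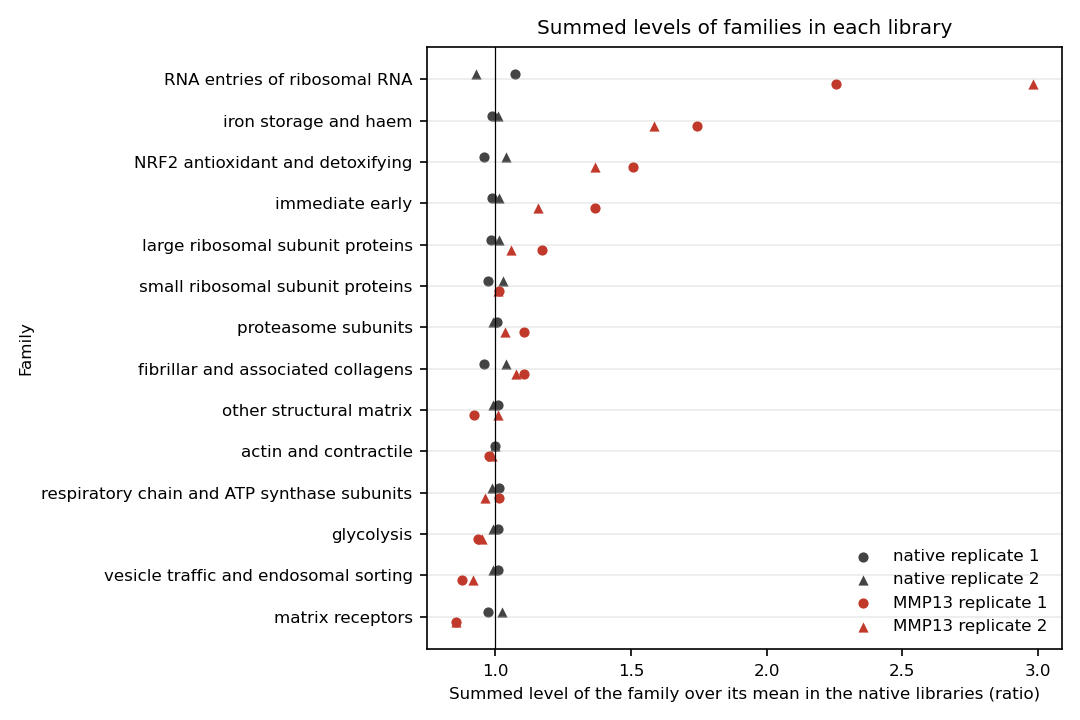
Summed level of 14 families in each of the 4 libraries, divided by the family's mean over the native libraries, with native libraries in black and MMP13 libraries in red, circles for replicate 1 and triangles for replicate 2. The ribosomal RNA entries reached 2.26 and 2.98, iron and haem genes 1.74 and 1.58 and NRF2 genes 1.51 and 1.37, while actin, respiratory chain and small-subunit genes stayed between 0.96 and 1.03 in every library.

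Genes of the matrix itself gave no call after 4 h. None of the 11 tested collagens, the 17 other structural matrix genes or the 17 genes of collagen folding and crosslinking was called. Col1a1, the main chain of type I collagen, had 1829 and 2114 units on native matrix and 2277 and 2201 on MMP13-remodelled matrix (log2 fold 0.19, 95% interval 0.03 to 0.35, adjusted p = 0.489). Its partner chain Col1a2 had 473 and 432 against 482 and 415 units (95% interval -0.29 to 0.26), with overlapping libraries. Serpinh1, the collagen chaperone HSP47, had 503 and 567 against 791 and 673 units, with a log2 fold of 0.45 that missed the limma threshold (adjusted p = 0.0584) and passed in edgeR (adjusted p = 0.0451).

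Fn1 (fibronectin), which cells assemble beside collagen, had 965 and 921 units on native matrix and 699 and 766 on MMP13-remodelled matrix (log2 fold -0.37, 95% interval -0.59 to -0.14, adjusted p = 0.162). Both MMP13 values lay below both native ones. Sparc, a collagen-binding glycoprotein, lay the other way at 700.2 and 794 against 838 and 917 units (log2 fold 0.23, adjusted p = 0.582). Across the 8 abundant genes of this structural matrix list 3 lay above and 3 below without overlap (37.5% each), against 22.4% and 24.1% of abundant genes. The list summed to 2915 and 2865 against 2667 and 2922 units.

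Receptors for matrix gave no call, and the median fold of their abundant members was below 0. Itgb1, the integrin chain common to the collagen and fibronectin receptors, had 649 and 668 units on native matrix and 479 and 497 on MMP13-remodelled matrix (log2 fold -0.43, 95% interval -0.69 to -0.18, adjusted p = 0.122). Bsg (basigin, an inducer of metalloproteinases) had 762 and 795 against 588 and 626 units (log2 fold -0.36, adjusted p = 0.257). Lrp1, an endocytic receptor that clears proteases, had 232 and 187 against 163 and 144 units, and the hyaluronan receptor Cd44 had 74.1 and 64.9 against 50.7 and 33.6 units, at adjusted p of 0.521 and 0.509. These were the 4 of 7 abundant receptors (57.1%) whose MMP13 values were both below, against 24.1% of abundant genes. None of the 7 had both above. Of all 18 tested receptors 7 had both below and 4 both above, against 18.6% and 18.9% of tested genes. The median log2 fold was -0.36 over these abundant receptors and -0.16 over all 18 tested, and the whole list summed to 2519.8 and 2653 units in the native libraries and 2213 and 2212 in the MMP13 libraries.

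Proteases and their inhibitors were mixed. Called lower was 1 of 18 tested genes, against 0.137% of all tested genes, and none was called higher. The call was Mmp9 (gelatinase B, which digests unwound collagen), below the abundance limit at 54.7 and 20.4 against 18.4 and 3.36 units (log2 fold -1.91, adjusted p = 0.0303). Its native values were more than 2 times apart and the MMP13 replicate 2 value was 2 reads. Leaving out MMP13 replicate 1 gave a log2 fold of -2.98, leaving out MMP13 replicate 2 gave -0.83 and leaving out native replicate 1 gave -1.22, and edgeR did not call it (adjusted p = 0.109). The cells' own Mmp13 transcript had 103 and 95.8 units on native matrix and 61.0 and 65.5 on MMP13-remodelled matrix, close within groups and not overlapping (log2 fold -0.65, 95% interval -1.19 to -0.11, adjusted p = 0.469). It is not the protein that had been used on the matrix. Mmp14, the membrane collagenase that activates MMP13, lay the other way at 48.6 and 74.0 against 106 and 89.0 units (adjusted p = 0.362). The lysosomal protease Ctsl had 733 and 715 against 561 and 534 units (log2 fold -0.40, adjusted p = 0.142), and the inhibitor Timp1 had 241 and 278 against 274 and 220.0 units with overlap (95% interval -0.41 to 0.26).

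The machinery by which fibroblasts grip and pull gave no call. Of 23 focal adhesion genes, 31 actin and contractile genes and 17 genes of vimentin, tubulin and their partners, none passed the test. Actb (beta-actin) had 4667 and 4204 units on native matrix and 3979 and 4269 on MMP13-remodelled matrix (95% interval -0.23 to 0.02). Vim (vimentin) had 1099 and 1411 against 1458 and 1152 units (95% interval -0.13 to 0.25) and Cfl1 (cofilin, which severs actin filaments) 1164 and 1211 against 1054 and 1095 (95% interval -0.34 to 0.05). Tpm2, a tropomyosin, had 238 and 225 against 174 and 169.6 units without overlap (log2 fold -0.43, adjusted p = 0.489), and Capzb, which caps filaments, 69.3 and 149 against 162 and 161 (adjusted p = 0.231). Acta2, the smooth muscle actin that marks contractile fibroblasts, had 17.0 and 48.3 against 59.6 and 42.0 units (log2 fold 0.78, 95% interval 0.09 to 1.46); its native values lay nearly 3 times apart. The actin list summed to 11137 and 11144 units in the native libraries and 10900.3 and 10985 in the MMP13 libraries.

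Targets of the mechanical factor YAP and of TGF-beta were not called either. Cyr61, a YAP target made on spreading, had 55.9 and 68.7 against 47.8 and 33.6 units (log2 fold -0.62, adjusted p = 0.658) and the receptor kinase Axl 74.1 and 47.5 against 44.1 and 35.3 (adjusted p = 0.669). Both had the MMP13 values below the native values, the 2 of 4 abundant members (50%) that did, against 24.1% of abundant genes. Of all 19 tested members 3 had both MMP13 values above and 3 below, against 18.9% and 18.6% of tested genes. The list summed to 718 and 692 units in the native libraries and 708 and 678 in the MMP13 libraries.

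**Figure D5:**
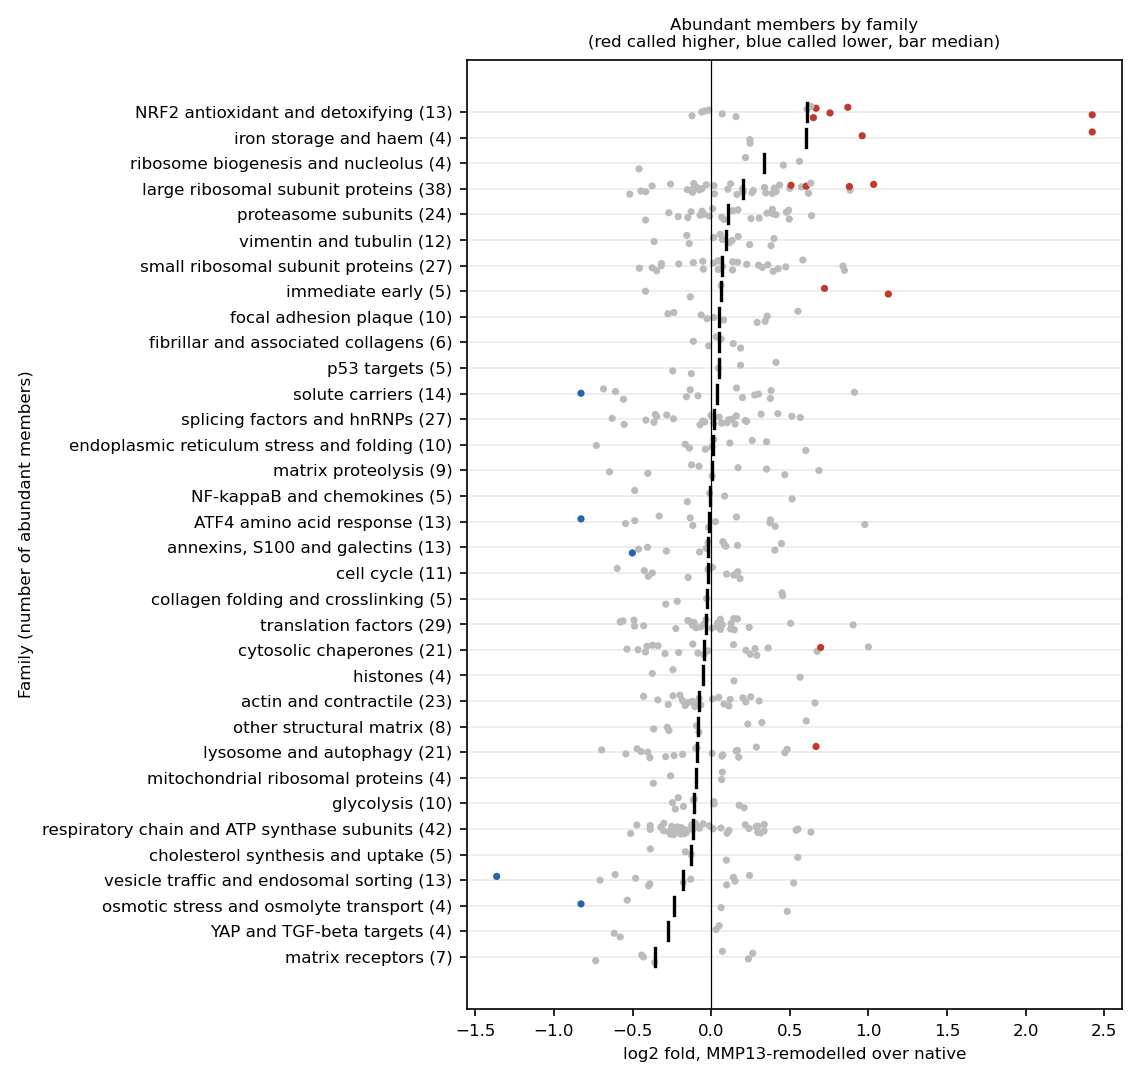
Log2 folds (MMP13-remodelled over native) of the abundant members of each family with 4 or more of them, red where called higher and blue where called lower, with a black bar at the median. Abundant NRF2 and iron genes have medians of 0.61 and 0.60, matrix receptors -0.36, and most other families lie near 0 with members on both sides.

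Among the calls on the lower side, Ahnak, a giant scaffold under the cell membrane that binds annexin and S100 proteins, had 635 and 639 units on native matrix and 408 and 495 on MMP13-remodelled matrix (log2 fold -0.50, adjusted p = 0.0499). Nme2, a nucleoside diphosphate kinase, had 833 and 826 against 573 and 641 units (log2 fold -0.45, adjusted p = 0.0499). In both genes the native libraries were almost equal and the MMP13 libraries lay clearly below, and both sat at the edge of the threshold. S100a4, Lgals1 and Anxa2 of the annexin, S100 and galectin list had log2 folds of -0.02, 0.09 and 0.41 and were not called. Ahnak was the list's 1 call among 18 tested genes, against 0.137% of all tested and 0.371% of abundant genes called lower.

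Slc38a2, the SNAT2 carrier of small neutral amino acids, which amino acid shortage and high salt induce, had 297 and 179 units on native matrix and 129 and 129 on MMP13-remodelled matrix (log2 fold -0.83, adjusted p = 0.0249). Its MMP13 libraries were equal and its native libraries far apart, so that without native replicate 1 or 2 the log2 fold was -0.46 or -1.19. Nfat5, the transcription factor of the response to high salt, was lower as well, at 48.6 and 58.9 against 31.6 and 10.1 units (log2 fold -1.52, adjusted p = 0.0357), below the abundance limit. Its log2 fold was -0.74 without MMP13 replicate 2 and -2.30 without MMP13 replicate 1, and edgeR did not call it (adjusted p = 0.103). These were 2 lower calls among 10 tested genes of osmotic stress, against 0.137% of all tested genes. On the same list Akr1b1, which makes the osmolyte sorbitol, lay the other way at 117 and 134 against 172 and 178 units (adjusted p = 0.486). Other genes of the amino acid response driven by ATF4 lay on both sides: Nupr1 had 62.0 and 30.9 against 89.0 and 85.6 units (log2 fold 0.98, adjusted p = 0.116) and Shmt2 156 and 134 against 118 and 89.0 (log2 fold -0.49, adjusted p = 0.549).

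Of 40 tested vesicle genes 3 were called lower, against 0.137% of all tested genes, and none of the 3 calls was kept without MMP13 replicate 2. Vps25, a subunit of the ESCRT-II complex that sorts receptors for the lysosome, had 93.6 and 55.8 units on native matrix and 34.6 and 21.8 on MMP13-remodelled matrix (log2 fold -1.36, adjusted p = 0.0451). Without MMP13 replicate 2 the log2 fold of Vps25 was -1.04. Rab18, a small GTPase of lipid droplets and endoplasmic reticulum, had 24.3 and 25.7 against 6.62 and 3.36 units (log2 fold -2.17, adjusted p = 0.0499). Its MMP13 replicate 2 value was 2 reads, and without that library the log2 fold was -1.77. In edgeR Rab18 was not called (adjusted p = 0.0529). Bloc1s4, of a complex that makes lysosome-related organelles, had 23.1 and 21.9 against 17.6 and 0 units (log2 fold -2.44, adjusted p = 0.0249). Its call rested on 1 library, MMP13 replicate 2, at 0 reads, where up to 3 reads or 5.04 units remain possible; the other MMP13 value was near the native ones, and the log2 fold without MMP13 replicate 2 was -0.33. Of 13 abundant vesicle genes 6 (46.2%) had both MMP13 values below, against 24.1%, and 2 both above, with sums of 1710.3 and 1678 against 1484 and 1552 units. The other calls on the lower side were Ubl3, a membrane-anchored ubiquitin-like protein, at 49.8 and 30.2 against 13.2 and 6.72 units (log2 fold -1.93, adjusted p = 0.0112), and Ppp6r1, a regulatory subunit of protein phosphatase 6, at 62.0 and 77.0 against 21.3 and 30.2 (log2 fold -1.41, adjusted p = 0.0451).

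Of the remaining higher calls, Hspb1, the small heat shock protein HSP27, had 147 and 168 units on native matrix and 276 and 237 on MMP13-remodelled matrix (log2 fold 0.70, adjusted p = 0.0499). It was the 1 call among 28 tested cytosolic chaperones, against 0.275% of all tested and 1.76% of abundant genes called higher. Its relative Hspb8 had 35.3 and 30.9 against 66.9 and 67.2 units and was not called (log2 fold 1.00, adjusted p = 0.194), and Hsp90aa1, the inducible HSP90, lay the other way at 229 and 249.8 against 158 and 171 units (log2 fold -0.54, adjusted p = 0.301). Ppm1g, a nuclear phosphatase, had 60.8 and 65.7 against 138 and 109 units (log2 fold 0.94, adjusted p = 0.0499). Fam65b, a regulator of the GTPase RhoA, had 90.0 and 77.0 against 196 and 163 units (log2 fold 1.09, SE 0.23, adjusted p = 0.00129); which transcript gave its reads was not tested.

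Mip carries the name of the lens membrane protein aquaporin 0 and was nevertheless the entry with the highest values in these fibroblasts. Its native libraries held 5819 and 4880.1 units and its MMP13 libraries 5674 and 7543. The groups overlapped, and its small log2 fold of 0.30 (SE 0.06, adjusted p = 2.63e-04) was called with an SE taken from the trend at its level. DESeq2 and limma with robust eBayes did not call it (adjusted p of 0.382 and 0.835). Quantile scaling gives the top entry of every library the same value. Its log2 fold of 1.78e-15 for Mip was therefore fixed beforehand and says nothing of the difference. Which transcript gave these reads was not tested.

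Lists of endoplasmic reticulum stress, NF-kappaB, interferon, p53 and hypoxia gave no call. In the endoplasmic reticulum list of 21 tested genes, the chaperone Hspa5 had 282 and 313 against 422 and 247 units with overlap (95% interval -0.19 to 0.43), Atf4 159 and 188 against 305 and 227 (log2 fold 0.60, adjusted p = 0.12) and Herpud1 118 and 101 against 56.6 and 75.6 (log2 fold -0.73, adjusted p = 0.313). Among the 13 tested genes of NF-kappaB and chemokines, Ccl2 had 383 and 174 against 205 and 264 units and Cxcl1 124 and 125 against 196 and 161 (log2 fold 0.51, adjusted p = 0.41). The other lists held 11 tested interferon genes, 14 p53 targets and 11 hypoxia targets. Ddit4, a stress-induced brake on mTOR and below the abundance limit, came near the threshold at 14.6 and 27.9 against 47.1 and 63.8 units (log2 fold 1.39, adjusted p = 0.0582).

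Metabolic and housekeeping families, which hold many of the most abundant genes, gave no call in the lists looked at other than the lysosome list and the solute carriers. Of 77 respiratory chain and ATP synthase genes none was called, and the 42 abundant ones had a median log2 fold of -0.12 (all tested, -0.05). Values of the abundant ones were apart upwards in 8 (19.0%) and downwards in 12 (28.6%), against 22.4% and 24.1% of abundant genes. Cox6a1, of cytochrome oxidase, had 179.9 and 203 against 298 and 260.3 units (log2 fold 0.54, adjusted p = 0.191) and Atp5b, the catalytic subunit of ATP synthase, 434 and 423 against 377 and 341 (log2 fold -0.26). Of 15 tested glycolytic genes none was called. Among the 10 abundant ones, 5 (50%) lay below without overlap and 1 (10%) above, against 24.1% and 22.4% of abundant genes. Those below included Aldoa (aldolase) at 899.5 and 792 against 702 and 739 units (log2 fold -0.23, 95% interval -0.45 to -0.001). The 44 proteasome, 61 splicing, 63 mitochondrial ribosome, 36 cell cycle, 19 cholesterol and 12 histone genes tested gave no call. Their abundant members had median log2 folds of 0.11, 0.02, -0.10, -0.02, -0.13 and -0.05. Over all tested members, which include low genes, the medians in the same order were 0.05, 0.11, 0.10, 0.11, 0.47 and 0.50, so that the last 4 had the other sign. Of the 19 cholesterol genes 9 had both MMP13 values above both native values and 1 below, against 18.9% and 18.6% of tested genes, and none of the 5 abundant ones was apart. In the lysosome and autophagy list of 38 tested genes the 1 call was Sqstm1, and among 124 solute carriers it was Slc38a2. Over all tested genes 0.275% were called higher and 0.137% lower, and over abundant genes 1.76% and 0.371%.

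Some abundant genes came close to the threshold without passing it in limma. On the higher side, beside Rps24, Serpinh1 and Txnrd1, these were Dbi, which carries acyl-CoA, at 232 and 209 against 344 and 329 units (log2 fold 0.61, adjusted p = 0.0697), and Alyref, an mRNA export factor, at 164 and 184 against 302 and 249 (log2 fold 0.65, adjusted p = 0.0718). Both passed in edgeR, at 0.0387 and 0.0346. On the lower side, beside Itgb1, they included Rtn4 (the reticulon that curves endoplasmic reticulum tubules) at 202 and 182 against 107 and 118 units (log2 fold -0.77, adjusted p = 0.0803, edgeR adjusted p = 0.0451), Sdcbp (syntenin, an adaptor of syndecans) at 167 and 175 against 109 and 95.7 (adjusted p = 0.12) and Prpf8 (the core of the spliceosome) at 282 and 248 against 147 and 198 (adjusted p = 0.122). In each of these the groups did not overlap, as in 22.4% of abundant genes upwards and 24.1% downwards. They were picked by smallest p, so this adds no evidence.

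Gene length in the annotation went only weakly with the fold. Over the 1062 abundant genes with a RefSeq gene span (98.5%), the Pearson correlation of log10 span with log2 fold was -0.12 and the Spearman correlation -0.13, across genes of the same libraries, which are not independent. The median span was 12416 bp over abundant genes, 6572 bp over the 16 genes called higher with a span and 8856 bp over the 4 called lower.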

How the data were processed

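The authors deposited 1 table of 17143 rat genes with a column for each of the 6 libraries. Its unit is a normalised signal: every deposited column holds whole reads per gene scaled by a single factor, as read from the values, which are multiples of 1 read within 0.01 reads. The submitters' processing notes name TopHat, DESeq, bcl2fastq and the build rn5, without versions, and per the labels read 2 carried a molecular identifier of 8 nucleotides. For the counter, annotation, strand use and collapsing of identifiers the entry is: not given in the sources used here. Hence counting floors cover counting error only, and overlapping or antisense genes cannot be separated.

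Depth was 161817 to 362122 reads per library, and 3 reads, the limit that a count of 0 allows, made 2.21 to 5.04 units. The recomputed test was limma 3.58.1 in R 4.3.3 (eBayes with a trend on mean level) on log2(value + 1), all 6 libraries, 1 coefficient per group and no replicate block, on genes with at least 5 units in at least 2 libraries. The pseudocount of 1 understates folds of low genes. The fit has 3 residual degrees of freedom but ran on 21852 pooled over genes. Recovered reads were also tested with edgeR 4.0.16 (4574 genes) and DESeq2 1.42.0 (858 genes given an adjusted p). Scripts were tested on simulated counts. Groups came from the sample titles.

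The genes named were every called gene, up to 4 members of each family by smallest p and the 2 most abundant, the 5 abundant uncalled genes of smallest p in each direction, the 10 most abundant, and Col1a1, Mmp13, Timp1, Fn1, Itgb1 and Acta2. 1 of the genes taken by this rule was left out and is not reported here. Of the 201 predicted genes tested, counted and not named, 0 were called. Members, families and lists were chosen with earlier results of these data known, and they carry no test of their own. Symbols were used as deposited; 16700 (97.4%) matched RefSeq (GRCr8), which served for synonyms, promoters and gene spans, and since the builds differ no coordinates are printed. Alternatives were other filters, pseudocounts, scalings, tools and fits without each library.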

Additional observations from a re-analysis of the deposited data

How the results depend on the processing

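Counts of called genes depended on the setting, and the cause was not tested. They are given as higher and lower over all tested genes, then over abundant genes, beside 20 and 10, then 19 and 4. TMM factors gave 7 and 1, then 7 and 0, although they moved the median fold of abundant genes by only -0.029 on the log2 scale. No filter on low values gave 12 and 1, then 11 and 0. Only the 2 groups compared gave 13 and 5, then 12 and 2. A pseudocount of 5 left 5 lower calls, 2 of them abundant, and a pseudocount of 0.5 left 3 and 1. Of lower calls edgeR made 6 and DESeq2 5, and quantile scaling made 7 abundant ones. Limma without the trend, which does not let the expected spread depend on level, called 0 in either direction with 442 genes at an unadjusted p under 0.05, and gave Hmox1 an adjusted p of 0.69 at the same log2 fold of 2.42. Without 1 library the higher calls ran from 5 to 30, 5 to 22 for abundant genes, and the lower calls from 0 to 24, 0 to 3 for abundant genes. The replicate block gave 16 and 5, then 15 and 2. Same-numbered libraries are not shown to be paired: their deviations correlated at -0.072 between MMP13 and native, -0.045 between MMP1 and MMP13 and 0.006 between MMP1 and native. Of the 30 called genes, 25 were called by edgeR and 20 by DESeq2, which gave 8 no adjusted p, 2 (Hmox1 and Rn45s) in all 6 fits without 1 library and 4 in none. Over these genes and settings 294 values stayed on their side of the threshold, 238 lost the call and none changed sign. The log2 fold of Mip under quantile scaling, 1.78e-15, was fixed by that scaling, because Mip held the highest value in each library. A stricter filter, robust eBayes, and abundance limits of 25 or 100 units kept the 4 counts within 1.5 times, but robust eBayes lost Rn45s, Mip and Rab18 (adjusted p of 0.439, 0.835 and 0.0518). Depth limits the low genes, whose median SE was 0.67.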
